A study of Homo sapiens with 6 samples.

Results

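The G1 cyclins CCND1, CCND2, CCND3, CCNE1 and CCNE2, the cyclin-dependent kinases (CDKs) CDK2, CDK4 and CDK6, and the CDK inhibitors CDKN1B and CDKN2C were compared between K562 cells with and without knockdown of lncRNA-IUR1. These 10 genes were chosen by name, and all 10 are among the 12486 genes in the deposited expression table. K562 is an established human line of chronic myeloid leukemia and is driven by Bcr-Abl. The control cells stably expressed an shRNA against luciferase (sh-luc, n = 3 libraries), and the knockdown cells stably expressed an shRNA against lncRNA-IUR1 (sh-IUR1, n = 3 libraries), which the sample labels name lncRNA-up91. Both groups therefore carried an shRNA construct, and the labels name no drug for either group. Within each group the libraries are called unnumbered, r1 and r2 after their labels. The methods describe independent groups of cells, but it is not stated whether these came from separate infections, so the p-values measure the spread between these libraries, which may be partly technical. Expression is given in FPKM, which is fragments scaled for transcript length and library size, so that levels can be set side by side between genes.

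Progression through G1 is driven by cyclin D bound to CDK4 or CDK6 and then by cyclin E bound to CDK2. These kinases phosphorylate the retinoblastoma family of pocket proteins, which releases E2F transcription factors to switch on the genes of DNA synthesis. CDKN2C (p18, an INK4 inhibitor) binds CDK4 and CDK6, whereas CDKN1B (p27) binds cyclin-CDK complexes and is best known as an inhibitor of cyclin E-CDK2. In Bcr-Abl leukemia, signalling through STAT5, RAS and AKT is known to feed into this machinery through the D-type cyclins and CDKN1B.

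The question for these genes was whether their RNA levels differed between sh-IUR1 and sh-luc cells. None of the 10 genes was called at an adjusted p-value under 0.05 by limma with Benjamini-Hochberg adjustment over all genes tested, and 0 of the 10 passed even an unadjusted p-value under 0.05. Among all 12276 genes tested, 0% were called after adjustment and 2.65% had an unadjusted p-value under 0.05. The sh-luc and sh-IUR1 ranges overlapped for each of the 10 genes, while 7.07% of all genes tested had no overlap between groups. CCND3 and CDK4 were the most abundant of the 10 transcripts in every library, and CCNE2 and CDKN1B varied most between libraries.

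Promoter sequences are shown for 2 members, because CDK4 and CDKN1B are set beside MYC and FOXO3 further on. MYC, whose protein binds E-box sequences, is a known activator of CDK4, and FOXO3 is a known activator of CDKN1B. The RefSeq promoter table (GRCh38.p14) held 6 of the 10 members, in 11 start-site windows, of which the 250 bases upstream of the start are used here. The CDK4 sequence is chr12:57752311-57752560 on the minus strand, with the E-box letters CACGTG in capitals. The CDKN1B sequence is chr12:12717118-12717367 on the plus strand, with the CCAAT box (CCAAT, the letters recognized by NF-Y, searched on both strands) in capitals. Both are written 5′ to 3′ and end at the base before the transcription start.
CDK4: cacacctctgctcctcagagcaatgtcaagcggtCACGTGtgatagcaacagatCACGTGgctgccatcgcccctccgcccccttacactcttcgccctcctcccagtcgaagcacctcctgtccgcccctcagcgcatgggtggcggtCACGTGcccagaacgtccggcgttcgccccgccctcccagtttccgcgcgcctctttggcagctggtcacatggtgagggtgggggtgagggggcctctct
CDKN1B: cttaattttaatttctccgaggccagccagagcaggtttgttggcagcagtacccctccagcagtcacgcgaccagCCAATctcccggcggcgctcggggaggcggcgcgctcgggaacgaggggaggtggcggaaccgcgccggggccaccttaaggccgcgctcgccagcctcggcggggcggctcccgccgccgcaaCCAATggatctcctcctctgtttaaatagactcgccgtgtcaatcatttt

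The CDK4 window held 3 E-boxes, which began 216, 196 and 101 bases upstream of the start. At least 1 E-box stood in 6.34% of the 35116 promoter windows of this length, and 3 or more stood in 0.0797% of them. Some windows of CDKN2C also held a single E-box. The CDKN1B window held 2 CCAAT boxes, and 32.0% of all windows held at least 1. The FOXO letters GTAAACA, searched on both strands, were not in the CDKN1B window and were in 2.98% of all windows. The E2F letters (TTTCCCGC, TTTCGCGC, TTTGCCGC or TTTGGCGC on either strand, in 2.79% of all windows) were in 0 of the 11 windows of the members. The GC box GGGCGG, on either strand, was counted 7 times in the CCNE1 window and 3 times in the CDK4 window. It was counted up to 5 times in windows of CCND3 and CDKN2C and up to 3 times in those of CDK6. Of all windows, 42.6% held it and 13.9% held it 3 or more times. Such matches describe letters and not bound sites.

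The whole set of libraries is summarized here as far as it touches these genes. The unnumbered sh-luc library stood apart the most. It held the highest or the lowest value of a gene for 62.5% of the 12276 genes tested, and for 6 of the 10 members. The share of genes was 48.2% for sh-IUR1 r1 and 18.9% to 25.6% for the remaining libraries. All 18 genes of the integrated stress response that were tested had their lowest value in the unnumbered sh-luc library, which was the lowest for 4715 of all 12276 genes tested. The stress list was chosen with earlier results of these data known. The summed level of its 18 genes was 1484 FPKM in that library and 2321 to 3057 FPKM in the other 5. The log2 fold changes of the 10 genes and of the other genes for which one is printed are therefore also given with the unnumbered sh-luc library omitted. Omission of sh-IUR1 r1 turned the sign for CCND3, CCND2, CDK4 and CCNE2. The cells carried the erythroid markers of K562, with HBG2 between 2559 and 3565 FPKM and GATA1 between 182.3 and 200.4 FPKM. Of 10 lymphoid and monocyte markers 6 were listed, with a summed level of the 5 tested between 112.0 and 125.4 FPKM that was almost all LYZ (107.0 to 118.7 FPKM), and CD3E was between 0 and 0.18 FPKM. The level of lncRNA-IUR1 itself was not analysed here, and no value of the silenced target is given.

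Averaged over the 6 libraries, the order of levels was CCND3 (182.6 ± 9.35 FPKM, SD, n = 6), CDK4 (163.1 ± 9.999), CDK2 (58.0 ± 2.35), CDKN2C (38.3 ± 1.43), CCND2 (31.2 ± 1.70), CCNE1 (25.7 ± 1.49), CDKN1B (20.03 ± 2.08), CDK6 (17.1 ± 1.09), CCND1 (6.89 ± 0.314) and CCNE2 (4.38 ± 0.865). Most neighbours in this order were separated in every library. The exceptions in range were CCND3 and CDK4, whose ranges overlapped although CCND3 was above CDK4 in 6 of 6 libraries, and CDKN1B and CDK6, where CDKN1B was the higher in 5 of 6 libraries. CDK4 lay 2.81-fold above CDK2 and CDK6 lay 2.49-fold above CCND1, which were the widest steps between neighbours in the order.

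The D-type cyclins activate CDK4 and CDK6 early in G1 in response to growth signals. CCND3 (cyclin D3; chromosome 6 of GRCh38, 41934933 to 42050035) was at 176.1 (unnumbered), 171.4 (r1) and 196.9 (r2) FPKM in sh-luc and at 182.9, 189.6 and 178.6 FPKM in sh-IUR1, in the same order of libraries. The lowest and the highest value both came from sh-luc, and all 3 sh-IUR1 values lay between them. The means were 181.5 ± 13.6 and 183.7 ± 5.53 FPKM (SD, n = 3 each), and the log2 fold change of FPKM + 1 was 0.020 (95% interval -0.13 to 0.16), or -0.00045 with the unnumbered sh-luc library omitted.

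CCND2 (cyclin D2; chromosome 12, 4273762 to 4305353), a known STAT5 target in blood cells, was at 29.6, 32.7 and 30.4 FPKM in sh-luc and at 32.7, 32.8 and 29.1 FPKM in sh-IUR1. Its highest and lowest libraries were both sh-IUR1, and the means of 30.9 ± 1.63 and 31.5 ± 2.07 FPKM (SD, n = 3 each) differed by less than either SD. The log2 fold change was 0.028 (95% interval -0.13 to 0.19), and -0.0022 on omitting the unnumbered sh-luc library. CCND1 (cyclin D1; chromosome 11, 69641156 to 69654474), which is the prominent D-type cyclin of many epithelial cells, was low in these cells. It was at 7.39, 6.69 and 6.89 FPKM in sh-luc and at 6.45, 6.93 and 6.98 FPKM in sh-IUR1, with means of 6.99 ± 0.361 and 6.79 ± 0.293 FPKM (SD, n = 3 each). Only the unnumbered libraries lay outside the range of the other group, the sh-luc one above and the sh-IUR1 one below. The log2 fold change was -0.037 (95% interval -0.21 to 0.14). It was -0.0012 with the unnumbered sh-luc library omitted and -0.0054 with the unnumbered sh-IUR1 library omitted, and ranged from -0.064 to -0.0012 over the omission of each library.

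Set against each other within each library, the D-type cyclins kept nearly the same proportions. CCND3 made up between 81.3% and 84.1% of the summed FPKM of the 3 D-type cyclins, CCND2 between 13.0% and 15.5%, and CCND1 between 2.91% and 3.47%. The mean share of CCND3 was 82.7% ± 1.39 in sh-luc and 82.7% ± 0.401 in sh-IUR1 (SD, n = 3 each). The summed level was 213.1, 210.8 and 234.2 FPKM in sh-luc and 222.0, 229.3 and 214.7 FPKM in sh-IUR1. The means of 219.3 ± 12.9 and 222.0 ± 7.29 FPKM (SD, n = 3 each) did not differ beyond the spread (two-sided exact permutation test, p = 0.8, where 3 libraries against 3 cannot give less than 0.1). The difference of 2.66 FPKM became -0.472 FPKM without the unnumbered sh-luc library, -1.63 FPKM without sh-luc r1 and -0.983 FPKM without sh-IUR1 r1.

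CDK4 and CDK6 are the catalytic partners of the D-type cyclins and phosphorylate RB1. CDK4 (chromosome 12, 57747727 to 57752310) was at 152.6, 160.3 and 172.8 FPKM in sh-luc and at 161.7, 177.3 and 154.0 FPKM in sh-IUR1. The highest library was sh-IUR1 r1 and the lowest was the unnumbered sh-luc library, and the groups overlapped over most of their range. The means were 161.9 ± 10.2 and 164.3 ± 11.9 FPKM (SD, n = 3 each), with a log2 fold change of 0.021 (95% interval -0.14 to 0.18). The sign turned to -0.021 on omitting the unnumbered sh-luc library and to -0.035 on omitting sh-IUR1 r1.

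MYC, set beside CDK4 because of the E-boxes shown above, was likewise lowest in the unnumbered sh-luc library (140.8 FPKM) and highest in sh-IUR1 r1 (179.3 FPKM). Its other values were 173.0 and 174.8 FPKM in sh-luc and 176.1 and 171.7 FPKM in sh-IUR1. MYC was not alone in this. STAT5A (119.3 to 141.35 FPKM) and STAT5B (48.71 to 65.75 FPKM), among other genes, were also lowest and highest in these libraries. In sh-IUR1 r2 CDK4 was near its lowest value, at 154.0 FPKM, whereas MYC was at 171.7 FPKM. The unnumbered sh-luc library was the lowest for 4715 of the 12276 genes tested, and a relation between MYC and CDK4 was not tested. In GENCODE release 44, 1369 of the 3094 exonic bases of CDK4 (44.2%) are shared with TSPAN31 on the opposite strand. It is not stated whether strand was used in counting, so reads of these bases cannot be assigned with certainty. TSPAN31 itself was at 7.53 to 10.3 FPKM, far below CDK4.

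CDK6 (chromosome 7, 92604921 to 92836573) was at 16.9, 17.0 and 15.9 FPKM in sh-luc and at 17.9, 16.3 and 18.9 FPKM in sh-IUR1. Both the unnumbered and the r2 library of sh-IUR1 were above every sh-luc library, and sh-IUR1 r1 was within the sh-luc range. The means were 16.6 ± 0.595 and 17.7 ± 1.32 FPKM (SD, n = 3 each), with a log2 fold change of 0.083 (standard error 0.075, 95% interval -0.085 to 0.25). Its unadjusted p-value of 0.295 was the smallest among the 10 genes, and the adjusted p-value was 0.930 (limma). CDK6 had a positive log2 fold change on omission of each library, from 0.037 to 0.14, and of 0.095 when this was the unnumbered sh-luc library.

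The FPKM of CDK4 was 9.03, 9.42 and 10.8 times that of CDK6 in sh-luc and 9.03, 10.9 and 8.15 times in sh-IUR1. By FPKM, the CDK4 transcript was thus the more abundant of the pair in all 6 libraries, with the limit from TSPAN31 given above. Kinase protein and activity were not measured in these libraries. The log2 ratio was 3.28 ± 0.138 in sh-luc and 3.22 ± 0.213 in sh-IUR1 (SD, n = 3 each; two-sided exact permutation test, p = 0.7). CDK4 and CDK6 together came to between 0.795 and 0.844 times the summed D-type cyclins in the 6 libraries, a quantity that was added after the values were seen. It was 0.814 ± 0.0240 in sh-luc and 0.819 ± 0.0216 in sh-IUR1 (SD, n = 3 each; two-sided exact permutation test, p = 0.6).

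CDK2 (chromosome 12, 55966830 to 55972789), the partner of the E-type cyclins, was among the least variable of the 10 genes. It was at 54.5, 58.8 and 61.7 FPKM in sh-luc and at 57.8, 57.0 and 58.2 FPKM in sh-IUR1. All 3 sh-IUR1 libraries lay inside the sh-luc range, and the means were 58.3 ± 3.62 and 57.7 ± 0.620 FPKM (SD, n = 3 each). Its log2 fold change was -0.062 with the unnumbered sh-luc library omitted and 0.026 with sh-luc r2 omitted. With all libraries it was -0.015 (95% interval -0.15 to 0.12), so that on this scale ratios below 0.899 and above 1.09 lay outside the interval.

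**Figure D1:**
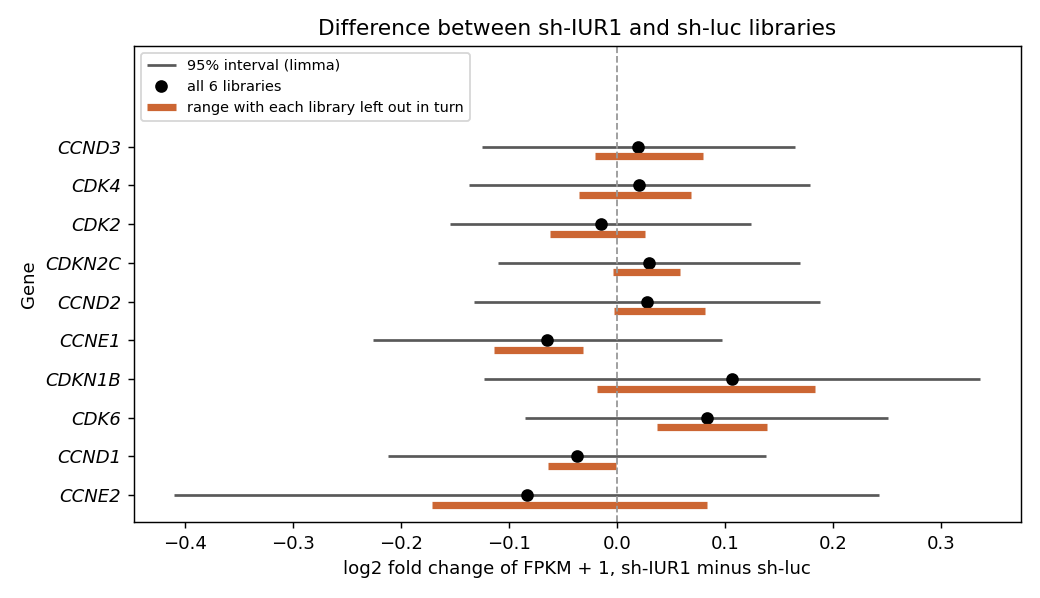
Log2 fold change of FPKM + 1 between sh-IUR1 and sh-luc for each gene (black point), its 95% interval from limma (grey line) and the range of the estimate with each library left out in turn (orange bar). Every grey line crosses 0, and the widest, for CCNE2, runs from -0.41 to 0.24.

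CCNE1 and CCNE2 encode the E-type cyclins, which bind CDK2 at the end of G1 and are themselves E2F targets. CCNE1 (chromosome 19, 29811991 to 29824312) was at 27.5, 24.7 and 26.6 FPKM in sh-luc and at 24.1, 24.3 and 26.9 FPKM in sh-IUR1. The unnumbered and r1 libraries of sh-IUR1 were below every sh-luc library, and sh-IUR1 r2 was within the sh-luc range. The means were 26.3 ± 1.44 and 25.1 ± 1.57 FPKM (SD, n = 3 each), with a log2 fold change of -0.064 (standard error 0.072, 95% interval -0.23 to 0.097) and an adjusted p-value of 0.931 (limma). Leaving out any single library kept the log2 fold change negative, between -0.11 and -0.031, the latter when it was the unnumbered sh-luc library.

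CCNE2 (chromosome 8, 94880224 to 94896693) was the lowest of the 10 genes and the most variable. It was at 5.90, 3.91 and 3.85 FPKM in sh-luc and at 4.79, 3.51 and 4.29 FPKM in sh-IUR1. The unnumbered sh-luc library was above all others, and the unnumbered sh-IUR1 library came next. The standard deviation of log2(FPKM + 1) over the 6 libraries was 0.22, larger than for 94.7% of the genes tested. The group means of 4.55 ± 1.17 and 4.20 ± 0.645 FPKM (SD, n = 3 each) did not differ beyond the spread, with a log2 fold change of -0.083 (standard error 0.15, 95% interval -0.41 to 0.24). Without the unnumbered sh-luc library the log2 fold change was 0.083, of opposite sign. In GENCODE release 44, 1629 of the 4397 exonic bases of CCNE2 (37.0%) are shared with INTS8 on the opposite strand. INTS8 was the more abundant, at 24.9, 21.0 and 18.9 FPKM in sh-luc and 22.4, 18.8 and 21.8 FPKM in sh-IUR1, and was also highest in the unnumbered sh-luc library and next in the unnumbered sh-IUR1 library. The part of INTS8 reads in the CCNE2 values was not tested. In bulk RNA, fewer cells in a phase of the cycle and less RNA per cell cannot be told apart. By flow cytometry, the paper reports that cell cycle progression did not differ significantly between control and knockdown K562 cells. Whether imatinib was present in that assay is not stated. The paper also reports a raised level of Ki-67 in tumors that knockdown cells formed in nude mice.

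The FPKM of CCNE1 was 4.66, 6.31 and 6.90 times that of CCNE2 in sh-luc and 5.03, 6.91 and 6.27 times in sh-IUR1. The ratio was lowest in the unnumbered library of each group. On the log2 scale it was 2.56 ± 0.297 in sh-luc and 2.59 ± 0.235 in sh-IUR1 (SD, n = 3 each; two-sided exact permutation test, p = 0.9). The difference of 0.033 became -0.13 without the unnumbered sh-luc library.

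CDKN1B (p27; chromosome 12, 12717368 to 12722369) is transcribed under the control of FOXO factors, and its protein is removed through SKP2 and CKS1B as cells enter S phase. Its RNA was at 16.0, 20.6 and 21.4 FPKM in sh-luc and at 21.3, 21.1 and 19.8 FPKM in sh-IUR1. The unnumbered sh-luc library was the lowest, and the other 5 libraries lay between 19.8 and 21.4 FPKM. The means were 19.3 ± 2.94 and 20.7 ± 0.829 FPKM (SD, n = 3 each). The log2 fold change of 0.11 (standard error 0.10, 95% interval -0.12 to 0.34, adjusted p = 0.930 from limma) was the largest among the 10 genes, and without the unnumbered sh-luc library it was -0.018. The standard deviation of log2(FPKM + 1) over the 6 libraries, 0.15, was larger than for 81.9% of the genes tested.

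FOXO3 was lowest in the same library, at 6.64 FPKM, and at 11.5 and 10.4 FPKM in the other sh-luc libraries. In sh-IUR1 it was at 11.59, 12.3 and 9.48 FPKM, with a log2 fold change of 0.23 (standard error 0.17, adjusted p = 0.930 from limma) that was 0.018 with the unnumbered sh-luc library omitted. The stress genes described above were lowest in this library as well, and their part in the CDKN1B values was not tested.

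CDKN2C (p18; chromosome 1, 50960745 to 50974634) was the more abundant inhibitor and the least variable of the 10 genes, with a standard deviation of log2(FPKM + 1) of 0.053. It was at 38.9, 36.1 and 38.7 FPKM in sh-luc and at 39.0, 40.1 and 37.2 FPKM in sh-IUR1. The highest value was in sh-IUR1 r1 and the lowest in sh-luc r1, and the remaining libraries were mixed. The means were 37.9 ± 1.56 and 38.7 ± 1.47 FPKM (SD, n = 3 each), with a log2 fold change of 0.030 (95% interval -0.11 to 0.17). It was 0.048 with the unnumbered sh-luc library omitted and -0.0039 with sh-luc r1 omitted. CDK4 and CDK6 together came to between 4.35 and 4.91 times the level of CDKN2C in the 6 libraries, again a quantity added after the values were seen.

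The FPKM of CDKN1B was 0.410, 0.569 and 0.553 times that of CDKN2C in sh-luc and 0.546, 0.527 and 0.532 times in sh-IUR1. Apart from the unnumbered sh-luc library, the 5 ratios lay within 0.527 to 0.569. The log2 ratio was -0.98 ± 0.262 in sh-luc and -0.90 ± 0.0260 in sh-IUR1 (SD, n = 3 each; two-sided exact permutation test, p = 1). The difference of 0.082 became -0.069 without the unnumbered sh-luc library. The ratio of CDK2 to its inhibitor CDKN1B, added after the values were seen, took the values 3.41, 2.86 and 2.88 over the sh-luc libraries and 2.71, 2.70 and 2.94 over the sh-IUR1 libraries, with overlap between groups.

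As a set, 6 of the 10 genes had a positive and 4 a negative log2 fold change, with values from -0.083 to 0.11 and a median of 0.020. The median of all 12276 genes tested was 0.019. Without the unnumbered sh-luc library the medians were -0.0017 and 0.0047. The E-type cyclins were both on the negative side, and the inhibitors were both on the positive side, but each interval included 0, and the sign of CCNE2 and CDKN1B turned when the unnumbered sh-luc library was omitted, as that of CDKN2C did without sh-luc r1. The widest interval was that of CCNE2, where ratios below 0.753 and above 1.18 lay outside it on the FPKM + 1 scale.

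Other CDK inhibitors were read from a list of 6 genes. CDKN1C was at 18.3 to 19.5 FPKM, CDKN3 (a phosphatase of CDKs) at 8.11 to 11.8 FPKM, CDKN1A (p21) at 4.43 to 7.64 FPKM and CDKN2D at 3.29 to 4.52 FPKM. CDKN2A and CDKN2B were looked for but were not among the 12486 genes with values, which does not show whether they were expressed. None of the 4 tested passed an unadjusted p-value under 0.05. CDKN1A had the largest log2 fold change with all libraries, 0.16 (standard error 0.15). Like CDKN1B it was lowest in the unnumbered sh-luc library, and the log2 fold change with that library omitted was 0.0097.

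The pocket proteins that the G1 kinases phosphorylate had positive log2 fold changes in 3 of 3 genes, with a median of 0.072 and 0 at an unadjusted p-value under 0.05. RBL2 (p130) was at 14.1 to 16.1 FPKM, RB1 at 5.77 to 7.39 FPKM and RBL1 (p107) at 5.94 to 7.13 FPKM, so that each was well below CCND3 and CDK4. RBL2 had the largest log2 fold change of the 3, 0.078 (standard error 0.069), and 0.074 with the unnumbered sh-luc library omitted.

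Several E2F factors, with their DP partners, act directly downstream of the pocket proteins. Of 10 E2F and DP genes, not all of which do so, 3 were positive and 7 negative. Their median was -0.050, with 0 at an unadjusted p-value under 0.05. E2F4, a repressor form whose partners include RBL1 and RBL2, was the most abundant at 109.4 to 121.0 FPKM. E2F2 had the largest log2 fold change with all libraries, 0.16 (standard error 0.10), but it was 12.4 FPKM in the unnumbered sh-luc library and 15.9 to 17.3 FPKM in the other 5. With that library omitted its log2 fold change was 0.042. TFDP1, which pairs with E2F proteins to bind DNA, had no overlap between groups. It was at 70.1, 62.9 and 62.9 FPKM in sh-luc and at 61.8, 55.6 and 61.7 FPKM in sh-IUR1, with a log2 fold change of -0.13 (standard error 0.070, unadjusted p = 0.0991 and adjusted p = 0.930 from limma). The log2 fold change was -0.076 with the unnumbered sh-luc library omitted and -0.077 with sh-IUR1 r1 omitted. E2F3 was the other gene of the list without overlap, at 29.6 to 30.2 FPKM in sh-luc and 27.9 to 29.2 FPKM in sh-IUR1, and both were chosen after their values were seen. These 2 of 10 genes are to be read against the 7.07% of all genes tested that had no overlap.

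Of 21 genes that E2F switches on at the G1/S boundary, a list that includes CCNE1 and CCNE2, 8 were positive and 13 negative, with a median of -0.034. At an unadjusted p-value under 0.05 there was 1 gene, PCNA, the sliding clamp of DNA polymerases. PCNA was at 185.3, 160.0 and 164.8 FPKM in sh-luc and at 155.3, 136.6 and 158.7 FPKM in sh-IUR1, so that every sh-IUR1 library was below every sh-luc library. The means were 170.1 ± 13.5 and 150.2 ± 11.9 FPKM (SD, n = 3 each), and the log2 fold change was -0.18 (standard error 0.077, unadjusted p = 0.0446, adjusted p = 0.930 from limma). The log2 fold change was -0.11 with either the unnumbered sh-luc library or sh-IUR1 r1 omitted, with an unadjusted p-value of 0.126 from limma in the former case. PCNA was therefore not called, and 1 of 21 genes is to be read against the 2.65% of all genes tested.

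Among 12 genes of p27 and cyclin turnover, 5 were positive and 7 negative (median -0.013), and 0 had an unadjusted p-value under 0.05. SKP2, the F-box protein that recognizes p27, was at 41.5 ± 2.20 FPKM in sh-luc and 41.3 ± 2.21 FPKM in sh-IUR1 (SD, n = 3 each), and its cofactor CKS1B was at 194.0 to 218.5 FPKM. RBX1, the RING subunit of cullin ligases, had the largest log2 fold change, -0.24 (standard error 0.11), and was at 59.1 FPKM in the unnumbered sh-luc library and between 38.0 and 44.1 FPKM in the other 5. The log2 fold change of RBX1 was -0.092 with that library omitted. The MuvB core (5 genes, median -0.017) and the CDK-activating kinase with the CDC25A, WEE1 and PKMYT1 regulators (6 genes, median -0.0031) also had 0 genes at that threshold. The largest log2 fold changes in these lists were -0.11 for LIN52 and 0.048 for MNAT1, and these were -0.065 and 0.051 with the unnumbered sh-luc library omitted. Upstream of the D-type cyclins and CDKN1B, 10 of 14 genes were positive, with a median of 0.031. This became -0.016 without the unnumbered sh-luc library, where 11 of the 14 had their lowest value. Of the 14, 1 gene had no overlap between groups, AKT1, at 88.3 to 92.2 FPKM in sh-luc and 84.1 to 87.2 FPKM in sh-IUR1. In the MuvB core it was RBBP4, 1 of 5 genes, at 49.8 to 51.6 and 47.7 to 49.1 FPKM. Their log2 fold changes were -0.077 and -0.055, or -0.065 and -0.040 with the unnumbered sh-luc library omitted. Both were named after their values were seen and are to be read against the 7.07% of all genes tested without overlap.

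Genes whose profile over the 6 libraries lay closest to that of each member were sought among 5103 genes that averaged 1 FPKM or more and had a standard deviation of at least 0.1 on the log2 scale. Closeness was the mean absolute difference of z-scores of log2(FPKM + 1), and with 6 points many genes come close by the shared libraries alone. The nearest to CDKN1B was MCM2, a subunit of the replicative helicase (0.068), followed by GCC1 (0.077), and 266 genes lay within 0.25. C1GALT1C1 (0.088) was among the genes close to CCNE2, which had 125 genes within 0.25. CCNE1 was nearest to TOR4A (0.076) and to GTSE1 (0.086), a G2/M-phase gene, with 53 genes within 0.25.

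Fewer of the genes compared came close to the other members described here. CCND2 was nearest to YY2 (0.048) and SMARCD3 (0.080), with 45 genes within 0.25, CDK4 to COL15A1 (0.068) and TLCD1 (0.15), with 22, and CDK6 to PCM1 (0.098) and ZNF451 (0.13), also with 22. CCND1 was nearest to RAB3B (0.11) and MYPOP (0.17), with 11 genes within 0.25. CDK2 was nearest to KCTD15 (0.097) and CBX8 (0.17), with 4. For CDKN2C the nearest were HLA-C (0.17) and the gene with identifier 107987276 (0.21), with 3. The counts within 0.25 were largest for CDKN1B and CCNE2, in whose profiles the unnumbered sh-luc library lay farthest from the mean. Of the members only CDKN1B and CCNE2 themselves reach the standard deviation of 0.1 asked of the genes compared. The counts therefore depend on which genes were admitted and do not measure how common a profile is.

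Other members also share exonic bases with overlapping genes in GENCODE release 44. The shared part was 20.4% for CDKN2C and 14.5% for CDK2, each with a noncoding RNA on the opposite strand, 12.5% for CCND2 with a gene model on the same strand, and 10.4% for CCND1 with LTO1 on the opposite strand. LTO1 was at 10.3 to 15.0 FPKM, above CCND1, and was lowest in the unnumbered sh-luc library, where CCND1 was highest.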

How the data were processed

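K562 RNA was sequenced in 3 sh-luc and 3 sh-IUR1 libraries. The authors trimmed and masked the reads, mapped them to hg38 and used SAMtools 0.1.19. The methods name the unit RPKM and the table headers name it FPKM. The aligner, annotation and use of strand are not given in the sources used here. The deposited values are FPKM with 2 decimals, for 12486 genes, none with a standard deviation under 0.05 FPKM over the 6 libraries. The z-scores, cluster numbers and memberships in the same table were not used. Fragment counts are not given with the FPKM, so depth is unknown and no counting interval is printed.

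Entrez identifiers were matched to symbols in RefSeq GRCh38.p14 (12363 of 12486). The 12276 genes averaging 0.1 FPKM or more, all 10 members included, were fitted as log2(FPKM + 1) with limma 3.58.1 in R 4.3.3 (lmFit, eBayes with a trend), sh-IUR1 against sh-luc, with Benjamini-Hochberg adjustment and 95% intervals. Fold changes on this scale understate changes of low genes. Sums and ratios within libraries were compared by exact two-sided permutation tests (scipy 1.17.1, Python 3.11.15). The fit was tested on simulated data.

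The members, the gene lists and the rules were chosen with earlier results of these data known. Named genes were all 10 members, the list genes with an unadjusted p under 0.05 or otherwise the largest absolute log2 fold change at a mean of at least 1 FPKM, and the 2 genes closest in profile to each member, some of which are not reported here; other genes named for their role or for an overlap (MYC, FOXO3, TSPAN31, INTS8, LTO1 and the list genes given by level) were added. Alternatives were a pseudocount of 0.1, no filter on low values, a filter at 1 FPKM, quantile normalization or median-ratio scaling, a replicate block, eBayes with no trend, and omission of each library in turn.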

Additional observations from a re-analysis of the deposited data

How the results depend on the processing

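No gene was called at an adjusted p-value under 0.05 under any of the 13 alternatives (limma), and 0 of the 10 members had an unadjusted p-value under 0.05 in any of them. Over all genes, an unadjusted p-value under 0.05 was reached by 325 genes with the settings of the text, by 533 with the replicate block, and by 158 to 856 when each library was omitted in turn. The highest number came without sh-luc r1, 711 came without sh-IUR1 r2, and the lowest came without the unnumbered sh-IUR1 library. Quantile normalization gave 134 genes higher and 178 lower at this threshold, against 203 and 122 in the text. The numbering was not taken as a pairing, since deviations of same-numbered libraries correlated at 0.044 (unnumbered), 0.39 (r1) and -0.34 (r2) across genes. The block called no gene.

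Of 130 log2 fold changes of members under alternatives, 117 kept their direction and 13 reversed, with adjusted p-values from 0.698 to 0.9997 (limma). The cause was not tested. The changes of filter, eBayes with no trend and the replicate block leave every estimate as it was, so their part of the 117 could not reverse. Apart from CCND3 with median-ratio scaling, the reversals all came on omission of a library. CCND1, CCNE1 and CDK6 kept their sign throughout. With median-ratio scaling that of CCND3 was -0.00097, and the difference in the D-type cyclin sum was -0.550 FPKM. Over the fits that omit a single library, the range was -0.0201 to 0.0796 for CCND3, -0.0180 to 0.183 for CDKN1B, -0.0350 to 0.0685 for CDK4, -0.00219 to 0.0818 for CCND2, -0.171 to 0.0831 for CCNE2, -0.00392 to 0.0588 for CDKN2C and -0.0619 to 0.0260 for CDK2. It was -1.63 to 10.1 FPKM for the D-type cyclin sum, and on the log2 scale -0.182 to 0.0272 for the ratio of CDK4 to CDK6, -0.134 to 0.163 for CCNE1 to CCNE2 and -0.0685 to 0.168 for CDKN1B to CDKN2C. The FPKM come without fragment counts, so how far low levels such as that of CCNE2 are limited by depth is unknown.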
